A study of Mus musculus with 4 samples.

Results

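The calcineurin pathway was examined through 10 genes: the calcineurin regulators Rcan1 and Rcan2, the calcineurin subunit genes Ppp3ca, Ppp3cb and Ppp3r1, the transcription factor genes Nfatc1, Nfatc2, Nfatc3 and Nfatc4, and Cabin1, which encodes a calcineurin-binding protein. They were chosen by gene symbol from the 22322 genes in each file, and all 10 passed the filter on low counts that left 12499 genes for testing. Libraries of mRNA were made from cardiomyocytes isolated from the hearts of male mice, 2 after a sham operation and 2 after transverse aortic constriction (TAC), a narrowing of the aorta that overloads the left ventricle with pressure. All mice had surgery at 2 months of age and their hearts were taken at the 14 weeks time point, which the methods give once as time after surgery and once as the age of the mice. No allele or drug separated the groups, their strain is not given in the sources read, and each library held part of the myocytes of a single heart. The libraries held 24237777 to 32118323 expected counts, of which the 13 protein-coding mitochondrial genes took 39.84% to 40.85% in sham 1, sham 2 and TAC 2 and 47.42% in TAC 1.

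Calcineurin is a phosphatase that is switched on by calcium and calmodulin. It is built from a catalytic A subunit and a calcium-binding B subunit. Active calcineurin removes phosphates from NFAT proteins in the cytoplasm, which then enter the nucleus and switch on target genes, and in heart muscle the pathway is best known for driving hypertrophy. RCAN proteins bind calcineurin and restrain it, and Rcan1 is itself a target gene of NFAT, read from an internal start as well as from starts farther upstream.

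The label of the samples was checked against marker genes. The 8 cardiomyocyte markers, among them Myh6, Tnnt2 and Ryr2, summed to 53470, 61630, 58670 and 56360 CPM in sham 1, sham 2, TAC 1 and TAC 2 (CPM, the count divided by the TMM-scaled library size and set to a common total), and none of the 8 was called by edgeR (3 had an unadjusted p under 0.05). Markers of other cells were also present, and each list summed to less in both TAC libraries than in both sham libraries. The 10 endothelial markers summed to 452.4 to 573.6 CPM in sham and 278.9 to 389.7 CPM in TAC, with 2 called lower. The 9 fibroblast markers summed to 176.6 to 247.4 CPM in sham and 104.5 to 140.7 CPM in TAC, with 2 called lower. The 7 mural cell markers summed to 359.1 to 376.0 CPM in sham and 155.8 to 264.7 CPM in TAC, with 1 called lower. The 8 macrophage markers summed to 60.02 to 115.7 CPM in sham and 31.7 to 58.33 CPM in TAC, and the 7 lymphocyte markers to 1.169 to 1.251 and 0.3587 to 1.063 CPM, with none called by edgeR in either list (5 and 0 genes had an unadjusted p under 0.05). No marker was at 0 in all libraries, although Cd3d, Cd3e, Cd3g, Cd4 and Cd8a were too low to be tested. In such bulk samples, fewer cells of a type and less RNA per cell cannot be told apart.

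The member that moved was Rcan1, and its start regions are shown because the counts do not separate the transcripts read from them. The 250 bases before each RefSeq start of Rcan1 (GRCm38.p6, minus strand, 5′ to 3′) were searched on both strands for GGAAA, the core that NFAT binds, and, chosen after the sequences had been read, for TGANTCA, the site of AP-1 factors, and TGACGTCA, the cyclic AMP response element. Matches are in capitals, and none of them overlapped another. The window before the upstream RefSeq start lies at chr16:92466170-92466419 and the window before the internal start at chr16:92400079-92400328, within an intron of the longer transcripts.
Rcan1 upstream start: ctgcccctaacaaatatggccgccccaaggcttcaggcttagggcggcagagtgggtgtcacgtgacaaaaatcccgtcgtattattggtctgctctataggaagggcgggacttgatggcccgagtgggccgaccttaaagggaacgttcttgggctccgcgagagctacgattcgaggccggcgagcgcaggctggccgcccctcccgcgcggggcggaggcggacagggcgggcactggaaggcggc
Rcan1 internal start: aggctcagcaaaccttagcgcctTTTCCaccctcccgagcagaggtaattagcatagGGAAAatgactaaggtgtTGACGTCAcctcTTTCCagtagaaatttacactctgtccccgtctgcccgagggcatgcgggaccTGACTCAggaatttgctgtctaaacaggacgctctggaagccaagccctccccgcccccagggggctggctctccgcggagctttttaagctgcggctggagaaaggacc
The upstream window held none of the 3 motifs. The internal window held 3 matches to GGAAA, at 227, 193 and 163 bases before the start, with the cyclic AMP response element at 175 bases and the AP-1 site at 110 bases. Of 32851 such windows of mouse genes, 55.6% held GGAAA at least 1 time and 6.39% at least 3 times, 6.75% held the AP-1 letters, 1.55% held the cyclic AMP response element and 0.0304% held all 3 motifs. Among the other members with a window (8 of 10 genes had an entry), Ppp3cb, Nfatc2 and Nfatc4 each had a window with 3 matches to GGAAA, Rcan2 had one with 2, Nfatc3 one with 1, and Ppp3r1 and Cabin1 had none. The AP-1 letters were also found 1 time in a window of Rcan2, and the cyclic AMP response element in no window of these other members. These matches describe the letters only.

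Rcan1 rose in TAC cardiomyocytes while the other 9 members did not pass the test. Its level was 92.9 and 61.1 CPM in sham 1 and sham 2 and 398 and 308 CPM in TAC 1 and TAC 2, from 2939, 1757, 11099 and 7534 counts. Both TAC libraries lay far above both sham libraries, and sham 2 was the lowest. The mean went from 77.0 ± 22.5 CPM (SD, n = 2) to 353 ± 63.6 CPM (SD, n = 2). The edgeR quasi-likelihood test gave a 4.58-fold increase (95% interval 3.31 to 6.35), or a log2 fold change of 2.20 ± 0.20 (SE), with an adjusted p of 0.00445 over all tested genes. By the size of its log2 fold change it ranked 21 among the 322 genes called higher, and 7 among the 298 of these that averaged 5 CPM or more. Rcan1 lies on the minus strand at chr16:92391953-92470867 (mm10), and the GENCODE M21 annotation gives it 7 transcripts, 5 of them coding, with further starts beside the RefSeq ones shown, among them one at base 92470867, the 5′ end of the annotated gene. The transcript from the internal start (2190 bases) and that from the upstream start (2324 bases) differ in their first exons, of 182 and 314 bases. Another coding transcript, from a start at base 92458475, has 2222 bases. The transcript length implied by count and FPKM was 2.17 kb to 2.22 kb in the 4 libraries, which does not tell these transcripts apart.

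**Figure D1:**
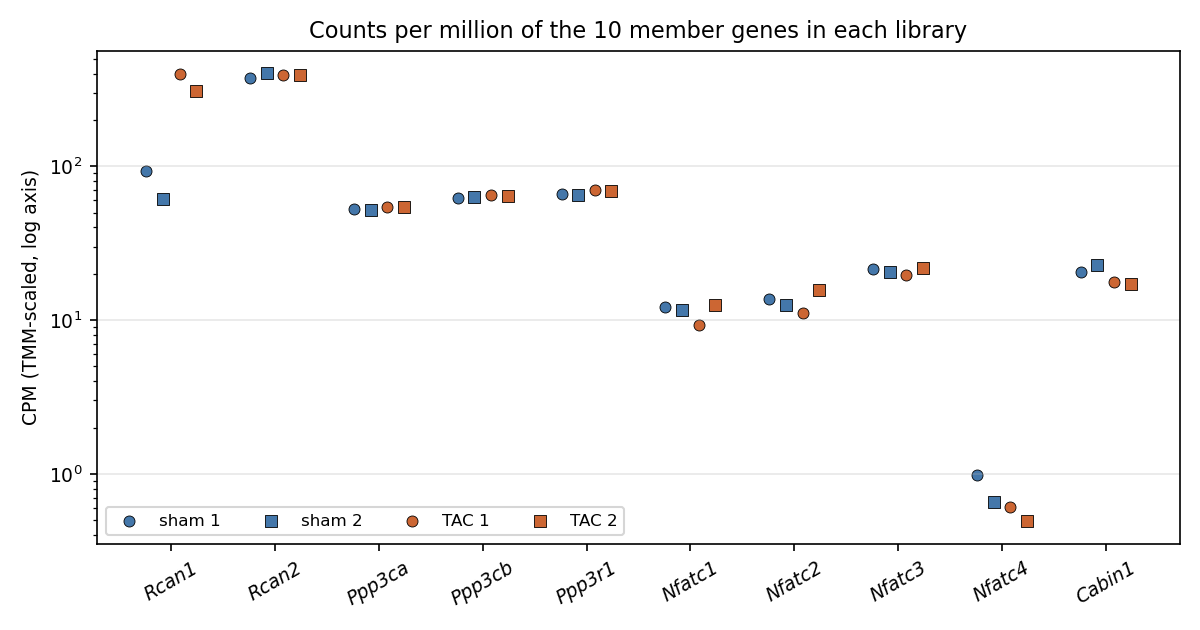
CPM (log axis, TMM-scaled) of the 10 member genes in each of the 4 libraries, with circles for replicate 1, squares for replicate 2, blue for sham and orange for TAC. Rcan1 goes from 61.1 to 92.9 CPM in sham to 308 to 398 CPM in TAC, while the points of Rcan2 and of the calcineurin subunits lie almost level.

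Rcan2, the paralogue of Rcan1 that is abundant in heart and brain, stayed within narrow bounds. It was at 377 and 403 CPM in sham 1 and sham 2 and at 392 and 394 CPM in TAC 1 and TAC 2, so that with TMM scaling both TAC values lay between the sham values. The edgeR log2 fold change was 0.01 ± 0.07 (SE), with a 95% interval of -0.16 to 0.18 and an adjusted p of 0.945. By total counts it was -0.18 (adjusted p = 0.417), and by FPKM both TAC values were below both sham values.

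The order of the paralogues differed between the groups when levels were taken per length. Levels of different genes are compared in FPKM (fragments divided by transcript length and library size), in which Rcan2 stood at 135.29 and 137.81 in sham 1 and sham 2 and at 111.59 and 129.37 in TAC 1 and TAC 2, and Rcan1 at 45.86, 29.22, 157.07 and 141.15. Rcan2 was thus the higher gene in both sham libraries and Rcan1 in both TAC libraries. By counts, which are not corrected for length, the ratio of Rcan1 to Rcan2 was 0.246, 0.151, 1.02 and 0.782, so that Rcan2 had more counts than Rcan1 in TAC 2. The FPKM ratio of Rcan1 to Rcan2 was 0.339, 0.212, 1.41 and 1.09 in the same order of libraries, and Rcan1 made up 25.3%, 17.5%, 58.5% and 52.2% of the FPKM of both genes. Their summed FPKM went from 174 ± 9.98 (SD, n = 2) in sham to 270 ± 1.32 (SD, n = 2) in TAC. These ratios are given without a test.

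The calcineurin subunit genes showed no such change. Ppp3ca, which encodes the alpha form of the catalytic subunit, was at 52.9 and 52.2 CPM in sham 1 and sham 2 and at 54.6 and 54.7 CPM in TAC 1 and TAC 2. Ppp3cb, for the beta form, was at 62.0, 63.0, 64.6 and 64.3 CPM in the same order. Ppp3r1, for the regulatory B subunit, was at 65.7, 65.3, 70.0 and 68.7 CPM. In all 3 genes both TAC values lay above both sham values. Groups without overlap, in either direction, were seen for 60.1% of all tested genes. The edgeR log2 fold changes were 0.05 ± 0.07 (SE) for Ppp3ca, 0.04 ± 0.07 for Ppp3cb and 0.08 ± 0.07 for Ppp3r1, with adjusted p-values of 0.664, 0.726 and 0.474. The 95% intervals, each for 1 gene, reached from -0.12 to 0.23, from -0.12 to 0.21 and from -0.08 to 0.25. The highest upper limit in this fit, that of Ppp3r1, was a 1.19-fold rise. When the libraries were scaled by total counts the 3 values became -0.13, -0.14 and -0.11, where the median of all tested genes moved from -0.01 to -0.20, so these small differences have no direction that holds across scalings. An exon of Ppp3r1 shares up to 185 bases with Wdr92 on the same strand, a gene with 220 to 296 counts per library against 1681 to 2079 for Ppp3r1.

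The calcineurin A subunits were also compared as a pool. Together with Ppp3cc, which encodes the gamma form, the A subunit genes summed to 47.3, 47.4, 41.7 and 47.3 FPKM in sham 1, sham 2, TAC 1 and TAC 2. Ppp3cb held the largest share in each library, at 44.1%, 42.7%, 41.3% and 42.4%. Ppp3cc held 21.7% and 24.1% in the sham libraries and 25.8% and 24.3% in TAC 1 and TAC 2. The share of Ppp3cb was thus lower, and that of Ppp3cc higher, in both TAC libraries than in both sham libraries, by at most a few percentage points and without a test. Ppp3ca held 32.9% to 34.2%, with overlapping groups. The FPKM of Ppp3r1 was 0.501 to 0.533 of the summed A subunits in the 4 libraries, with overlapping groups. Set against this pool, Rcan1 amounted to 0.97 and 0.617 of the summed A subunit FPKM in the sham libraries and to 3.77 and 2.98 of it in TAC 1 and TAC 2. For Rcan2 the same ratio was 2.86 and 2.91 in sham and 2.68 and 2.73 in TAC. Both RCAN genes together stood at 3.68 ± 0.216 (SD, n = 2) in sham and 6.08 ± 0.512 (SD, n = 2) in TAC per unit of A subunit FPKM.

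**Figure D2:**
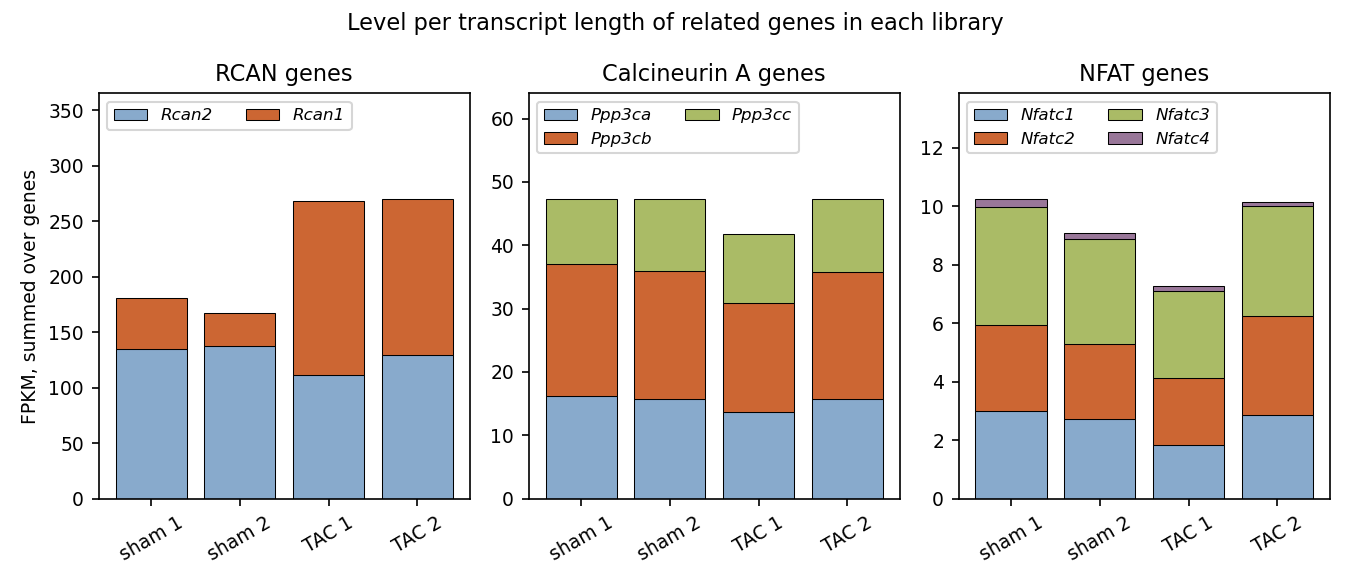
Deposited FPKM of the RCAN, calcineurin A and NFAT genes, stacked by gene in each of the 4 libraries, with an axis of its own in each panel and no error bars because each bar is 1 library. Rcan1 makes up 17.5% to 25.3% of the RCAN bars in sham and 52.2% to 58.5% in TAC, whereas Ppp3cb makes up 42.7% to 44.1% of the calcineurin A bars in sham and 41.3% to 42.4% in TAC.

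The NFAT genes, whose products carry the signal of calcineurin to the nucleus, were lower in abundance and none passed the test. Nfatc3 was the highest of them per length, at 4.04, 3.62, 2.98 and 3.77 FPKM in sham 1, sham 2, TAC 1 and TAC 2. Its CPM values of 21.4, 20.4, 19.7 and 21.8 overlapped between groups, and its edgeR log2 fold change was -0.01 ± 0.10 (SE; 95% interval -0.25 to 0.23; adjusted p = 0.951). Nfatc1 was at 12.1, 11.7, 9.29 and 12.6 CPM, with a log2 fold change of -0.13 ± 0.16 (95% interval -0.50 to 0.25; edgeR adjusted p = 0.638). Nfatc2 was at 13.7, 12.5, 11.1 and 15.6 CPM, with a log2 fold change of 0.02 ± 0.17 (95% interval -0.38 to 0.42; edgeR adjusted p = 0.95). For both genes TAC 1 was the lowest and TAC 2 the highest library, so that the TAC libraries enclosed the sham libraries. Without TAC 1 the log2 fold change was 0.08 for Nfatc1 and 0.25 for Nfatc2, and without TAC 2 it was -0.36 and -0.24. Nfatc4 had the fewest counts, with 31, 19, 17 and 12 counts or 0.98, 0.66, 0.61 and 0.491 CPM. Both TAC values were below both sham values, but the log2 fold change of -0.57 ± 0.44 had a 95% interval from -1.59 to 0.45 (edgeR adjusted p = 0.422), and a difference was not detectable at this depth. Of the summed NFAT FPKM, Nfatc3 held 37.2% to 41.0%, Nfatc2 28.1% to 33.2%, Nfatc1 25.0% to 29.9% and Nfatc4 1.38% to 2.92% in the 4 libraries. The share of Nfatc1 was lower in both TAC libraries (25.0% and 28.2%) than in both sham libraries (29.1% and 29.9%) by FPKM. By counts it was 25.0% and 25.9% in sham and 22.8% and 24.9% in TAC, without a test. The share of Nfatc2 was higher in both TAC libraries (31.8% and 33.2%) than in both sham libraries (28.6% and 28.1%) by FPKM, while by counts it was 28.5%, 27.7%, 27.3% and 31.0% and the groups overlapped. The transcript length implied by count and FPKM was itself different for Nfatc2, at 5.15 kb and 5.11 kb in the sham libraries and 4.18 kb and 4.68 kb in TAC 1 and TAC 2. Nfatc3 overlaps up to 219 exon bases of Esrp2 on the other strand, a gene with 7 to 16 counts per library.

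Cabin1, whose product binds calcineurin and represses it, was at 20.6 and 22.7 CPM in sham 1 and sham 2 and at 17.7 and 17.1 CPM in TAC 1 and TAC 2. Both TAC libraries were below both sham libraries. The edgeR log2 fold change was -0.31 ± 0.10 (SE; 95% interval -0.55 to -0.07), with an unadjusted p of 0.0174 and an adjusted p of 0.108, so that Cabin1 did not pass the threshold of 0.05. Under the alternatives that adjusted p lay between 0.0543 and 0.376, always with a negative log2 fold change (-0.58 to -0.24). The levels of Cabin1 and Nfatc4 lay below sham in the same libraries as the summed markers of other cell types, and the part of those markers in the values was not tested. The implied transcript length of Cabin1 also varied, between 6.02 kb in sham 1 and 7.01 kb in TAC 1.

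**Figure D3:**
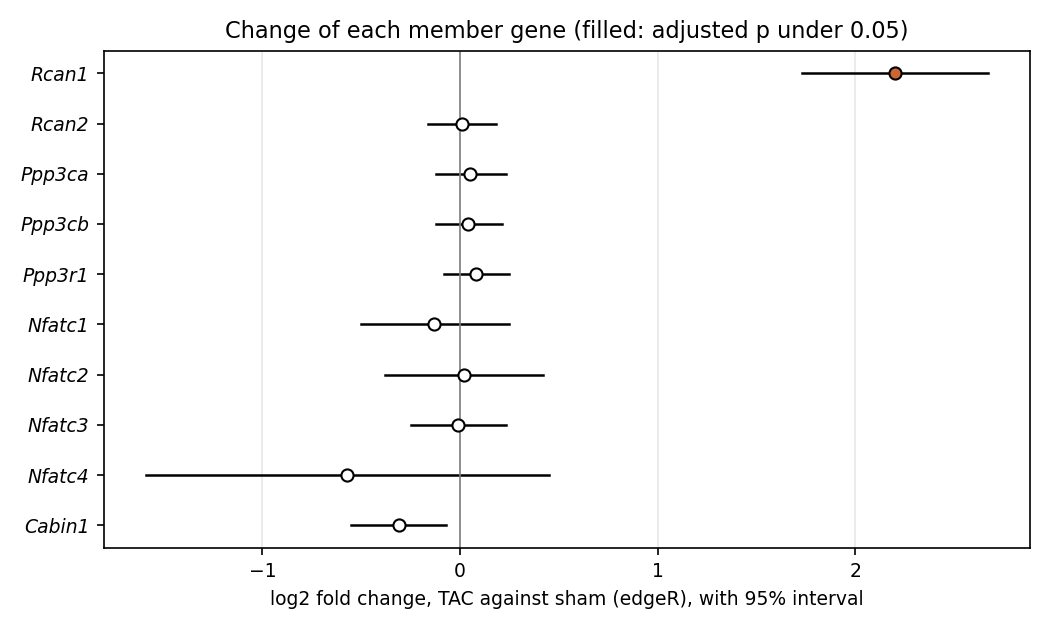
The edgeR log2 fold change of each member gene, TAC against sham, with its 95% interval as a horizontal line and a filled point where the adjusted p is under 0.05. Rcan1 stands alone at 2.20 (1.73 to 2.67), Cabin1 is at -0.31 with an interval below 0, and the intervals of the other 8 genes include 0.

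Among the 10 members, 1 was called at an edgeR adjusted p under 0.05, beside a background of 5.01% of the 12499 tested genes (626 genes, 322 higher and 304 lower). The split by direction depended on the scaling of the libraries, with 105 higher and 423 lower by total counts and 188 higher and 450 lower by totals without the mitochondrial genes. Unadjusted p-values were under 0.05 for 2 members, against 27.5% of all tested genes, and 8 members had an adjusted p over 0.4. Groups that did not overlap in CPM were seen for 6 members, against 60.1% of all tested genes, the same share. The median log2 fold change of the members was 0.02, and that of all tested genes was -0.01. Ordered by FPKM, sham cardiomyocytes had Rcan2 at the top, at 137 ± 1.78 (SD, n = 2), followed by Rcan1 (37.5 ± 11.8), Ppp3r1 (24.5 ± 1.05), Ppp3cb (20.5 ± 0.438) and Ppp3ca (15.9 ± 0.304). Nfatc3 (3.83 ± 0.297) and Cabin1 (3.66 ± 0.134) overlapped in sham, as did Nfatc1 (2.86 ± 0.191) and Nfatc2 (2.74 ± 0.269), and Nfatc4 was last (0.25 ± 0.0707). Within each sham library Nfatc3 was above Cabin1 and Nfatc1 above Nfatc2. In TAC the order began with Rcan1 (149 ± 11.3), Rcan2 (120 ± 12.6), Ppp3r1 (22.8 ± 2.11), Ppp3cb (18.6 ± 2.01) and Ppp3ca (14.8 ± 1.45). Nfatc3 (3.38 ± 0.559) overlapped with Nfatc2 (2.84 ± 0.75), and Cabin1 (2.42 ± 0.325) with Nfatc1 (2.34 ± 0.735). Within each TAC library Nfatc3 was above Nfatc2, while Cabin1 was above Nfatc1 in TAC 1 and below it in TAC 2.

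Other genes of the pathway were examined in 6 lists with 59 genes, of which 55 were tested, 6 were called higher and 1 was called lower, where 5.01% of all tested genes were called. Of these 7 calls, 4 were hypertrophy genes, and the other 5 lists held 3 calls among 50 tested genes, a share near that background. By total counts, or by totals without the mitochondrial genes, 4 were called higher and 3 lower. None of the 5 tested genes for other subunits, the paralogue Rcan3 and calmodulin was called by edgeR (2 had an unadjusted p under 0.05), and their median log2 fold change was 0.11. Calm2, one of the genes for the calcium sensor that switches calcineurin on, had the highest FPKM of this list and a log2 fold change of -0.18 ± 0.08, while Calm3 had 0.11 ± 0.07. Ppp3cc had 0.23 ± 0.11 with an edgeR adjusted p of 0.244. No gene for calcium entry (8 tested, 2 of them at an unadjusted p under 0.05, median -0.30) was called, and Cacna1c, for the pore of the L-type calcium channel, was at -0.10 ± 0.07. Trpc4, a calcium-permeable channel gene named here after its values were seen, had 6, 1, 22 and 12 counts and an edgeR adjusted p of 0.0898. No gene in the list of nuclear partners, which also held Nfat5, Hdac4, Hdac5 and Hdac9, was called either. Of its 9 tested genes, 4 had an unadjusted p under 0.05 by edgeR, the median was -0.18, and 8 of 9 had a negative log2 fold change. Over all tested genes, 50.9% had a negative value and 27.5% an unadjusted p under 0.05. Gata4, a cardiac transcription factor that binds NFAT proteins, was the exception at 0.03 ± 0.09.

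Among the anchors, inhibitors and Z-disc partners of calcineurin, 13 genes were tested, with a median of 0.07. Csrp3, which encodes the muscle LIM protein of the Z-disc, rose from 671 and 696 CPM in the sham libraries to 1130 and 968 CPM in TAC 1 and TAC 2 (log2 fold change 0.62 ± 0.10, edgeR adjusted p = 0.0196). Csrp3 lost its call in 4 of 15 alternatives, each with a log2 fold change of 0.42: when libraries were scaled by total counts (adjusted p = 0.0614) and in the 3 limma fits of FPKM (0.0991 to 0.236). Akap5, for a scaffold that holds calcineurin at the membrane, fell from 3.73 and 3.23 CPM to 1.11 and 1.68 CPM (log2 fold change -1.33 ± 0.29, edgeR adjusted p = 0.046). Akap5 lost its call in 6 of 15 alternatives: without sham 1 (adjusted p = 0.0988), without TAC 1 (0.145), with a replicate block (0.0545) and in the 3 limma fits of FPKM (0.099 to 0.236). The summed markers of other cell types were lower in the same libraries, and their part in this value was not tested. Among 15 genes for NFAT kinases, transport and scaffold (median 0.09), Homer2, a scaffold protein that competes with calcineurin for NFAT, rose from 58.4 and 65.9 CPM to 94.0 and 80.4 CPM (log2 fold change 0.49 ± 0.10, edgeR adjusted p = 0.0427). Homer2 lost this call in 7 of 15 alternatives: with total-count scaling (0.29, adjusted p = 0.161), with totals without the mitochondrial genes (0.0557), without sham 1 (0.0726), without TAC 1 (0.127) and in the 3 limma fits of FPKM (0.119 to 0.221). Prkaca, the catalytic subunit of protein kinase A and the most abundant gene of that list, was at 0.19 ± 0.07 (edgeR adjusted p = 0.135).

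The hypertrophy genes that the pathway is known to drive were a list of 5, of which 4 rose. Myh7, the slow myosin heavy chain of the fetal heart, went from 73.2 and 52.7 CPM in sham to 1480 and 698 CPM in TAC 1 and TAC 2 (log2 fold change 4.11 ± 0.35, edgeR adjusted p = 0.00445). Its increase was 17.3-fold with all libraries and 11.1-fold without TAC 1. Acta1, skeletal alpha-actin, went from 322 and 542 CPM to 3150 and 2270 CPM (2.65 ± 0.26, edgeR adjusted p = 0.00489). Both natriuretic peptide genes rose as well, Nppb from 163 and 171 CPM to 760 and 471 CPM (1.88 ± 0.20, edgeR adjusted p = 0.00535) and Nppa from 208 and 106 CPM to 485 and 378 CPM (1.46 ± 0.28, edgeR adjusted p = 0.0334). Nppa lost its call in 5 of 15 alternatives: without TAC 1 (adjusted p = 0.0614), with totals without the mitochondrial genes (0.0532) and in the 3 limma fits of FPKM (0.0513 to 0.256). Edn1, for endothelin 1, was at 2.62, 2.26, 1.33 and 2.17 CPM and was not called (log2 fold change -0.49 ± 0.31). Several of these genes were already known to be higher in these libraries, so the count for this list is a description. Over the 6 lists together, 4 genes were called without TAC 1 where 7 were called with all libraries.

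**Figure D4:**
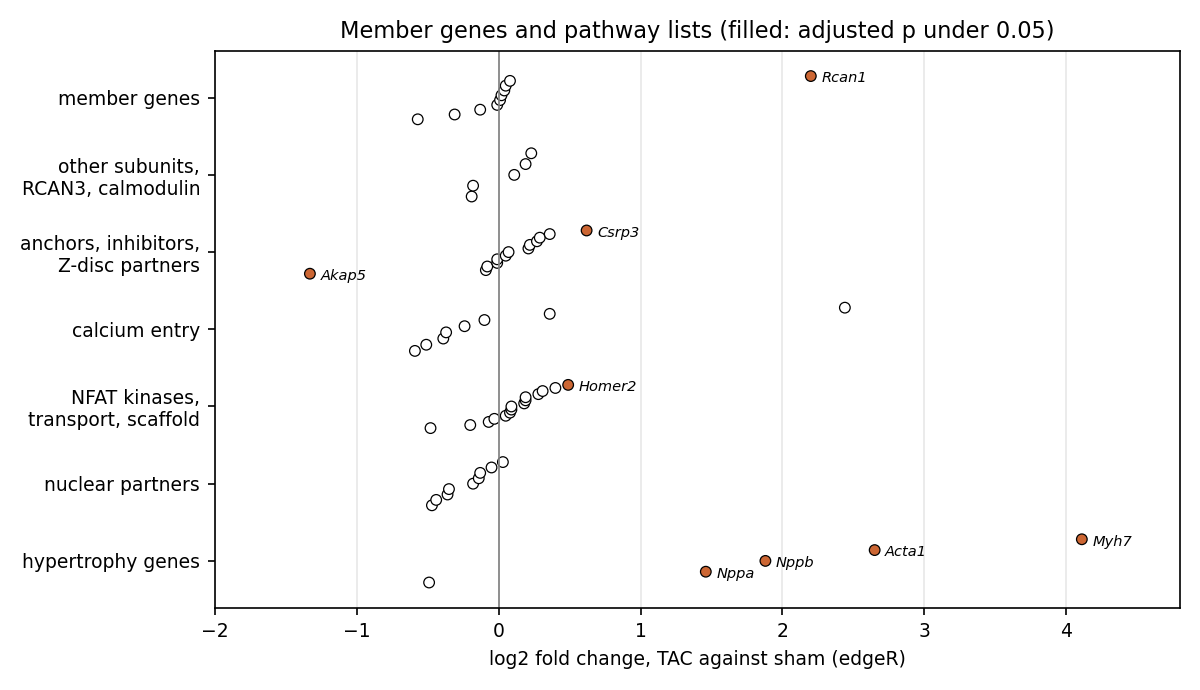
The edgeR log2 fold change (TAC against sham, x axis) of each tested gene of the members and of the 6 pathway lists, 1 point per gene, spread vertically within a list by value and filled where the adjusted p is under 0.05. The points of most lists gather around 0, and the filled points at the right are Rcan1, Csrp3, Homer2 and 4 of the 5 hypertrophy genes, with Akap5 at the left.

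The genes whose pattern was most like that of Rcan1 were found by the Euclidean distance between log2 CPM values centred on their mean over the 4 libraries, among the 8492 genes that averaged 5 CPM or more (median distance 2.22). The nearest was Nr4a3, an orphan nuclear receptor gene, at a distance of 0.33 and with 2.5, 2.15, 12.8 and 11.2 CPM in sham 1, sham 2, TAC 1 and TAC 2. Tnfrsf12a, the receptor of the cytokine TWEAK, followed at 0.36, with 48.4, 37.0, 172 and 150 CPM. Next were Edn3, for endothelin 3, at 0.41 (3.51, 3.2, 23.4 and 14.7 CPM), Aqp8, for a water channel, at 0.46 (6.48, 5.77, 26.8 and 21.1 CPM), and Nppb at 0.64. All 5 were called higher in TAC, with log2 fold changes of 1.88 to 2.51, but they were chosen for this pattern, so the calls add no support. Nr4a3 and Edn3 were under 5 CPM in both sham libraries and reached the mean of 5 CPM only through the TAC libraries. With 4 libraries in 2 groups, likeness to Rcan1 is mostly likeness in the difference between groups.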

How the data were processed

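Cardiomyocyte mRNA was sequenced from 2 sham and 2 TAC hearts. Titles gave the groups and replicate numbers. The authors deposited, per library and gene, an expected count, an estimate that may be fractional, and FPKM. The submitters' processing notes name mm10, Bowtie2 2.2.8 and StringTie 1.3.1; their roles, and whether counting used strand, are not stated in the sources read, nor is how reads of overlapping genes were split, but all 10 members had whole counts. Every library held 22322 genes, 16 of them without a symbol and 6291 with no count in any library.

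Expected counts were rounded and analysed in R 4.3.3 with edgeR 4.0.16 (filterByExpr, TMM factors of 0.8683 to 1.097, glmQLFit and glmQLFTest, no block). Benjamini-Hochberg adjustment ran over 12499 genes, called under 0.05. SE was the log2 fold change divided by the square root of F, and 95% intervals used the t distribution of the fit. The common biological coefficient of variation was 10.52%. Sham 1 and sham 2, and TAC 1 and TAC 2, were checked for repeat deposits and did not hold the same counts (chi-square per degree of freedom 9.192 and 31.34). With 1 heart per library, the p-values set the difference between groups against a spread between hearts. That spread was estimated with information shared across the tested genes. The deposited FPKM was used without rescaling to compare genes within a library. The implied length is count divided by FPKM and library total; its highest value exceeded its lowest by less than 5% for 74.4% of 4832 well-counted genes. Intervals from 2 libraries a group are wide, and low counts limit Nfatc4. Alternatives used DESeq2 1.42.0, limma 3.58.1, other scalings and filters, log2(FPKM + 1) and log2(FPKM + 0.1), a replicate block and leaving out each library.

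The members and all lists were chosen with earlier results of these data known. Named were the members, the called genes of each pathway list or otherwise its gene of highest FPKM, and the 5 genes most like Rcan1; a few more were added for context (Calm3, Ppp3cc, Edn1 and Prkaca, and Trpc4 after its values were seen). Promoter windows are from RefSeq, GRCm38.p6, and gene positions from GENCODE M21.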

Additional observations from a re-analysis of the deposited data

How the results depend on the processing

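Rcan1 kept its direction under all 15 alternatives (log2 fold change 1.93 to 2.53), and lost its call in limma on log2(FPKM + 1) without a low-value filter (1.99, adjusted p = 0.201), where limma called 0 genes, members and pathway lists included, with 2552 at an unadjusted p under 0.05. In all other alternatives Rcan1 was the sole member called. Of 149 comparisons of a member with an alternative, 148 kept their side of the threshold, and 29 values that were not called had another sign; DESeq2 gave no adjusted p for Nfatc4. Leaving out a library gave Rcan1 values of 1.93 (without sham 2) to 2.53 (without sham 1). The 626 genes called became 1676 without a low-count filter, 214 and 195 in limma on log2(FPKM + 1) and log2(FPKM + 0.1), 92 at an adjusted p under 0.01, 1817 under 0.1, and 301 (without TAC 1) to 1336 (without TAC 2) with a library left out. For the 7 pathway list genes these settings gave 11, 3, 3, 3, 14, and 4 to 10. Replicate numbers are shared by the groups but no source ties a number to a litter or day, and deviations of same-numbered libraries had a correlation of -0.2641. With the replicate block 566 genes were called and Rcan1 had 2.22 (adjusted p = 6.28e-06); Akap5 had an adjusted p of 0.0545. With the numbers crossed, chosen after seeing the data, 2131 genes and 16 pathway list genes were called. DESeq2 called 897 genes and total-count scaling 528 (105 higher, 423 lower). Why the counts moved was not tested. With 2 libraries a group and 1 heart per library, every value is limited in precision.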
